A study of Homo sapiens with 5 samples.

Results

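Trimethylation of histone H3 at lysine 9 (H3K9me3) marks silenced chromatin. This account describes the 306 H3K9me3 peaks inside protein-coding genes that stood in every one of the 3 deposited peak lists of the study. Members are peaks of the EV list on chromosomes 1 to 22 whose midpoint lies in the body of a RefSeq protein-coding gene on build GRCh38. Each also overlaps, by at least 1 bp, a peak of the KD list and a peak of a list whose name carries no genotype. They were 306 of 7372 genic EV peaks on these chromosomes and of 26364 EV peaks in all, and they lay in 245 genes, with 11 members in more than 1 gene. Members were chosen by measured values, the overlaps between the lists, so membership is a description and not a finding.

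The study profiled H3K9me3 by chromatin immunoprecipitation and sequencing in HEK293T, an established human embryonic kidney cell line. Its 5 samples comprise 3 H3K9me3 libraries (WT, EV and KD) and inputs of WT and EV, all in the same line and with no other allele or agent in the labels. KD is the knockdown that the design writes as KCNQ1OT1_K, after a long non-coding RNA of the imprinted KCNQ1 domain, and the meaning of the suffix K is unknown here. EV is read here as empty vector. The labels do not say how the knockdown was made or whether cells were a clone, and peak lists cannot be checked against cell type markers. Each group had 1 library, so no difference between lists has a replicate check and none was tested. The list without a genotype was assigned to no sample. The lists hold 26364, 13455 and 15215 peaks for EV, KD and the list without a genotype. Read depth is unknown.

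H3K9me3 is written by enzymes such as SETDB1 and the SUV39 family and is read by HP1 proteins, which pack the marked nucleosomes into heterochromatin. Most of it lies on satellite repeats and transposable elements. Within genes it is best known from the clusters of C2H2 zinc finger genes, where KRAB zinc finger proteins and TRIM28 recruit SETDB1, and from repeat arrays such as the one that holds DUX4. In the text, fold is the authors' fold enrichment of a peak over the peak caller's background, and −log10 p is the caller's score for the same peak, used here as the strength of a peak within its own list.

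The 4 stretches of sequence below show what lay under members at gene starts. They were chosen because, among the 10 strongest members that cover an annotated gene start, these are the ones where bases around the start were under a peak in all 3 lists. Each is the 250 bases upstream of the start, from RefSeq on GRCh38.p14, 5′ to 3′ in the direction of the gene, with every CG in capitals.
LOC124900837 (chr4:1145181-1145430, plus strand): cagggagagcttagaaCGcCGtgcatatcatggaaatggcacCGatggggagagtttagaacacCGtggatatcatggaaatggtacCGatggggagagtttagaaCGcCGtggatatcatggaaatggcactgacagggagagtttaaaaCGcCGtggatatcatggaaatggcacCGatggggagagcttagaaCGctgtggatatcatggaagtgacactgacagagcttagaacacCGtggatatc
CHL1 (chr3:197639-197888, plus strand): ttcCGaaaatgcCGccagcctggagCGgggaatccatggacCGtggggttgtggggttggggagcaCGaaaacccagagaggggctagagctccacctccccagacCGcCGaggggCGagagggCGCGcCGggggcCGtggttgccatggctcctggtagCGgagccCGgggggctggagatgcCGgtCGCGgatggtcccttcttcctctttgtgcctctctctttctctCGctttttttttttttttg
TAF11L4 (chr5:17521551-17521800, plus strand): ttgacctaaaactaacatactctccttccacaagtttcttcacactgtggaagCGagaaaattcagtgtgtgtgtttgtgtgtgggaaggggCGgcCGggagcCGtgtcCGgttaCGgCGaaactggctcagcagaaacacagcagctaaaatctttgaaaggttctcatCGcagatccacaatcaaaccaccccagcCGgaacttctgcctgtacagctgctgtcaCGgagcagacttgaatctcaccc
ZIK1 (chr19:57583895-57584144, plus strand): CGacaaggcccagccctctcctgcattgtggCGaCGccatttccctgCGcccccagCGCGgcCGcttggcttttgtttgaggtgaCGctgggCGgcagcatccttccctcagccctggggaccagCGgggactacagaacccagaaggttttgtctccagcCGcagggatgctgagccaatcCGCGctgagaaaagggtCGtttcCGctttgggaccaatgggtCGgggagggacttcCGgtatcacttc
The stretch before LOC124900837, a predicted gene, repeats itself: shifted by 45 bases against itself, the 300-base sequence around the start was identical at 75.7% of positions. Across shifts of 10 to 100 bases, only 26 of 21156 annotated starts of protein-coding genes (0.123%) reached that identity, and the median start reached 35.0%. The stretches before CHL1, ZIK1 and TAF11L4 reached 33.1%, 33.3% and 30.4%. CHL1 encodes a neural cell adhesion molecule and ZIK1 a zinc finger protein, and TAF11L4 is a copy in the TAF11-like family. TAF11L4 and its neighbour TAF11L3, also under a member, had the same base at all 300 positions around their starts, and so had PRR20D and PRR20E. Reads from such copies cannot be told apart by sequence over these stretches, so the peaks in these 4 genes are uncertain as to the copy they belong to.

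Genic EV peaks were found in both other lists at 4.15%. The share was 25.2% for the 15873 EV peaks outside protein-coding genes (3999 peaks). Of the genic EV peaks, 27.5% met a KD peak (2028 peaks) and 6.73% met a peak of the list without a genotype (496 peaks). Membership was thus limited mainly by the list without a genotype: 1722 genic EV peaks met KD alone, 190 met the list without a genotype alone, and 5154 met neither. Members were in 1.28% of the 19126 protein-coding genes of these chromosomes.

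The share found rose with the strength of the EV peak, in genes and outside them. Among genic EV peaks with −log10 p below 3.5, 0.245% were found in both other lists, against 1.72% outside genes. At −log10 p from 7 to 10 the shares were 5.09% (95% exact Clopper-Pearson interval over peaks 3.59 to 6.98) in genes and 52.1% (49.9 to 54.4) outside. At −log10 p of 100 or more they were 85.3% (29 of 34 peaks, 68.9 to 95) and 87.3% (96 of 110 peaks, 79.6 to 92.9), with intervals that overlap. All 173 genic EV peaks with −log10 p of 30 or more met a KD peak. These intervals cover counting error only and peaks of one gene are not independent.

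**Figure D1:**
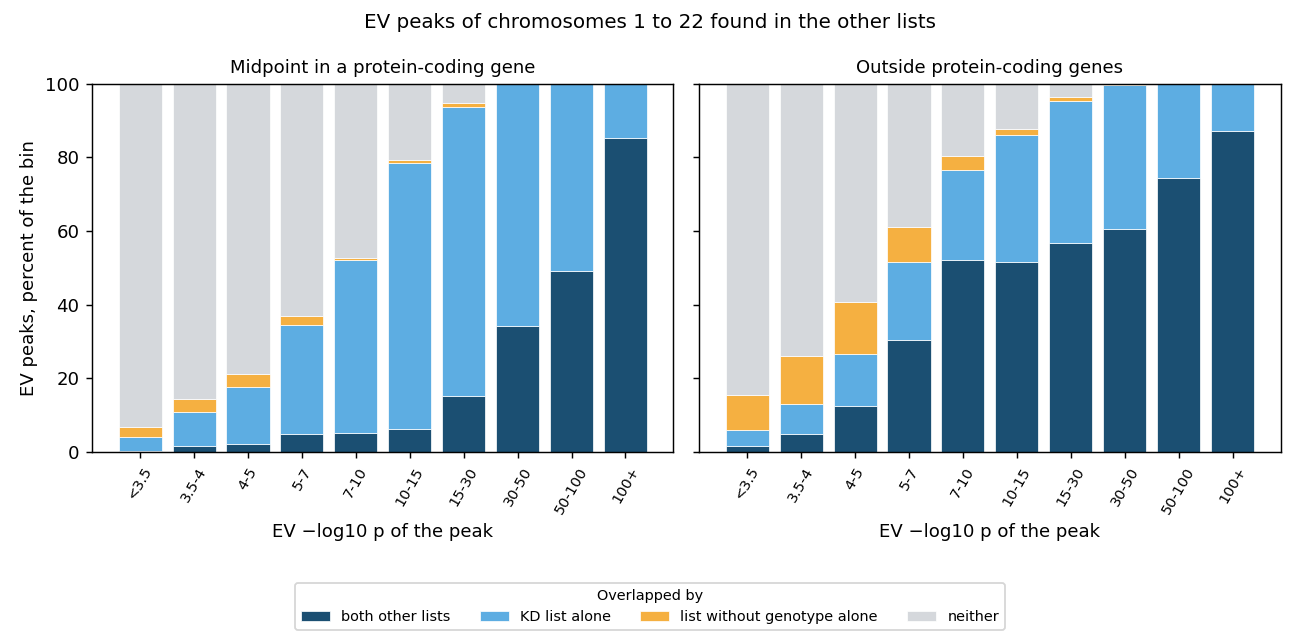
Bars show, for bins of EV −log10 p, the percent of EV peaks overlapped by both other lists, by the KD list alone, by the list without a genotype alone, or by neither, for peaks in protein-coding genes (left) and outside them (right). From −log10 p 7 to 10, 5.09% of genic peaks were in both other lists against 52.1% outside genes, and at 100 or more the shares were 85.3% and 87.3%.

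The rule also favours wide peaks, which meet other peaks more easily. Members had a median width of 1896.5 bp, against 816 bp for genic EV peaks found in neither list and 1182 bp for those found in KD alone. Of genic EV peaks below 1 kb, 1.24% were members (50 of 4044), and of those of 5 kb or more 54.7% were (35 of 64). Members had a median EV fold of 3.47, with a range from 1.67 to 13.7, and a median −log10 p of 9.57. Their KD and no-genotype partners had median folds of 3.74 and 3.43. The 3 lists were scaled separately, so no difference is read from these folds. At the edge of the rule, the ZNF7 and COMMD5 peak (chr8:144840001-144841765) met the list without a genotype by 1 bp, the EBPL peak (chr13:49678330-49678835) by 5 bp and the SRGAP2C peak (chr1:121351573-121352850) by 12 bp. Just outside it, the peaks in ZNF492, FAM20C and FOXD4L4 missed that list by 83, 107 and 199 bp.

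The strongest member lay in PTPRN2, which encodes a receptor-type tyrosine phosphatase-like protein of secretory vesicles. This peak (chr7:158146938-158149166, 2229 bp) had −log10 p of 1055 in EV, 507 in KD and 388 in the list without a genotype, with folds of 8.94, 9.51 and 11.9. It was strong in every list, and 99.5% of its bases were under a peak in all 3. The next lay in DUX4 (chr4:190177437-190181201, 3765 bp), the double homeobox gene carried by a subtelomeric repeat array, with −log10 p of 537, 227 and 247 and folds of 5.26, 5.07 and 4.33. DUX4 units are near-identical copies, so which unit the reads came from is uncertain. The peak in DOCK1, which encodes an activator of the GTPase Rac (chr10:126947291-126948404, 1114 bp), had −log10 p of 212, 116 and 76.3. In these 3 members the list without a genotype was strong as well as EV and KD.

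Most of the other strong members were strong in EV and KD but weak in the list without a genotype. In WDPCP, which encodes a protein of ciliogenesis and planar cell polarity (chr2:63228720-63230725), −log10 p was 211 in EV, 73.7 in KD and 5.39 in the list without a genotype. In YES1, a Src-family kinase gene (chr18:721430-723049), it was 188, 74.5 and 4.31. In WDR49 (chr3:167516390-167518144) it was 166, 75.7 and 3.45, and the folds were 12.7, 13.3 and 3.15. In WFDC11 (chr20:45659209-45661512) it was 164, 69.1 and 3.56. DCDC2, which encodes a doublecortin-domain protein, had 165, 50 and 3.54 (chr6:24290154-24291659). The last 3 values lay close to the lowest strength of any no-genotype partner, 3.25.

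The rest of the 15 strongest members had their highest −log10 p in EV and their lowest in the list without a genotype. Of the 15, only DUX4 had its lowest value in KD. PPFIA2, which encodes the presynaptic scaffold liprin-alpha 2, had 203 in EV, 85.2 in KD and 9.03 in the list without a genotype (chr12:81664531-81666507). RIMS1, which encodes an active zone protein, had 182, 66.5 and 10.1 (chr6:72337937-72339806). DEUP1, needed for the deuterosomes that multiply centrioles, had 196, 78.3 and 5.19 (chr11:93425599-93428347), and DST, the gene of the cytolinker dystonin, had 155, 50.1 and 7.25 (chr6:56778585-56780783). AGBL1, a gene of an enzyme that removes glutamates from proteins, had 187, 79.2 and 15 (chr15:86999744-87002808). SLC24A2, a cation exchanger gene, had 159, 43.0 and 10.9, and PPM1L, a protein phosphatase gene, had 176, 59.3 and 9.79. Of these 15 strongest members, all peaks were weaker in KD and in the list without a genotype than in EV by −log10 p. They were picked by their EV value, which favours such a difference, and the score is also lower where depth is lower. Depth is unknown, and the part of depth or of this choice was not tested.

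Of the 57 members with an EV −log10 p of 50 or more, 40 had a no-genotype partner below 10 and 17 had one at 10 or more, limits chosen after the values were seen. The 40 lay in 40 genes, with a median width of 1845 bp, and median −log10 p of 99.6 in EV, 39.9 in KD and 4.73 in the list without a genotype. The 17 had medians of 112, 49.1 and 18.2. Of the 40, 5 lay within 5 Mb of a chromosome end, and of the 17, 9 did. The 17 include HRNR and EPPK1, described below, the peak in LMF1 and LOC124900586 with 131, 77.3 and 33.9 (chr16:857499-859898), LMF1 being a lipase maturation factor gene, and YBEY with 94.1, 45.5 and 25.4 (chr21:46292583-46294635), a gene of an RNA-processing endonuclease. The strongest genic EV peaks that were no members lay in STK4, LDB2, CTNNA2, TNIK and HYAL4, with EV −log10 p of 149, 114, 114, 112 and 111, and met the KD list alone.

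**Figure D2:**
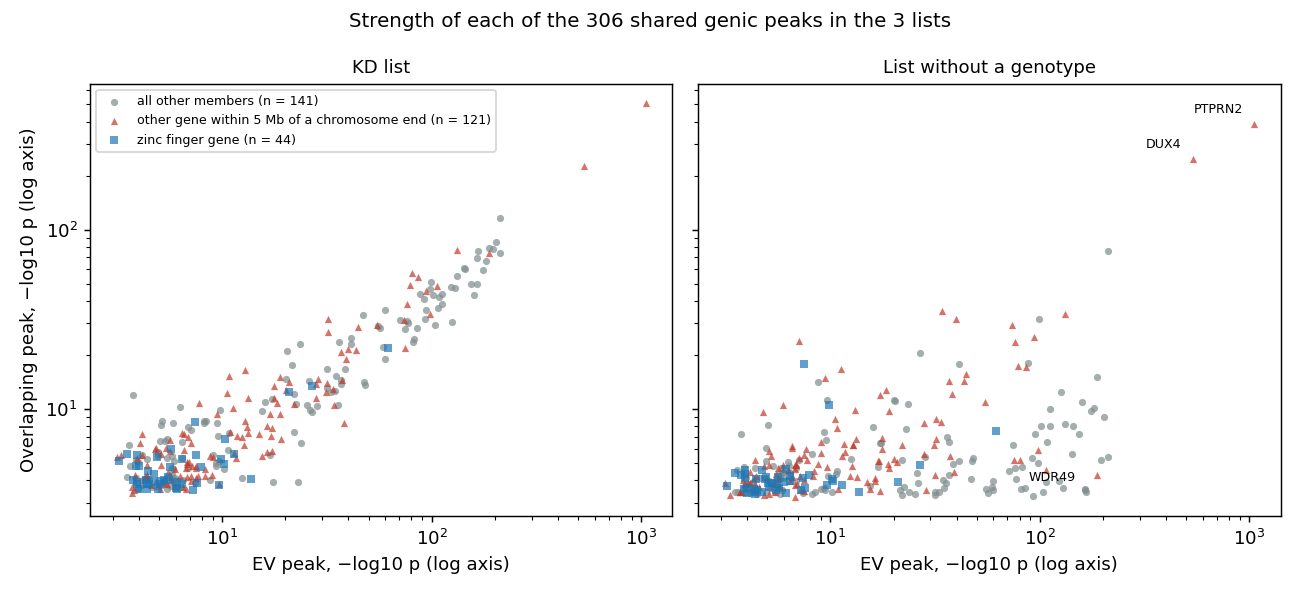
Each point is 1 of the 306 members, with its EV −log10 p on the horizontal log axis and the −log10 p of the overlapping peak of the KD list (left) or the list without a genotype (right) on the vertical log axis. In KD, strength rises with EV strength along a narrow band, while on the right many members with an EV value near 100 or more sit between 3 and 10, with PTPRN2 and DUX4 far above.

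Members gathered towards chromosome ends, a measure chosen after the data were seen. Of the 306, 140 lay within 5 Mb of an end (45.8%, 40.1 to 51.5), against 15.7% of the other 7066 genic EV peaks (14.9 to 16.6). The other peaks were not alike: the share was 41.1% (34 to 48.4) for the 190 that met the list without a genotype alone, 17.9% for those that met KD alone and 14.1% for those that met neither. The interval of the 190 overlaps that of the members, so a place near a chromosome end was not particular to peaks in all 3 lists. With a limit of 2 Mb the shares were 33% of members, 8.51% of all others and 23.2% of the 190 (17.4 to 29.8). With 10 Mb they were 54.6%, 24.4% and 54.2%. Over all genic peaks of each list, 17.0% lay within 5 Mb of an end in EV, 22% in KD and 24.0% in the list without a genotype. Without PTPRN2, which lies near the end of chromosome 7, the share of members was 41.1%.

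Against all other genic EV peaks, the difference was seen at every strength but not at every width. At EV −log10 p below 5 it was 50% of members (36.6 to 63.4) against 15.2% of other genic EV peaks, and at 30 or more 31.8% (22.1 to 42.8) against 4.55% (1.25 to 11.2). Among peaks below 1 kb it was 40% (26.4 to 54.8) against 13.8% (12.8 to 15), and from 1 to 2 kb 46.5% (37.1 to 56.1) against 15.2% (13.9 to 16.7). From 2 to 5 kb it was 44.9% (35.2 to 54.8) against 32.3% (28.0 to 36.8). At 5 kb or more it was 54.3% of 35 members (36.6 to 71.2) against 62.1% of 29 other peaks (42.3 to 79.3). Above 2 kb the intervals overlap.

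PTPRN2 held the most members, 24 of its 127 EV peaks (18.9%, 12.5 to 26.8), over a gene body of 1049 kb (chr7:157539056-158587823). Of its EV peaks, 66 met a KD peak and 30 a peak of the list without a genotype. Beside the strongest, described above, its members had EV −log10 p from 3.78 to 44.2. The next strongest (chr7:158360089-158361097) had 44.2, 28.6 and 15.7 in the 3 lists. Together the 24 members covered 67.7 kb, of which 22.6 kb (33.3%) were under a peak in all 3 lists. The members were spread along the gene body and did not form 1 block.

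**Figure D3:**
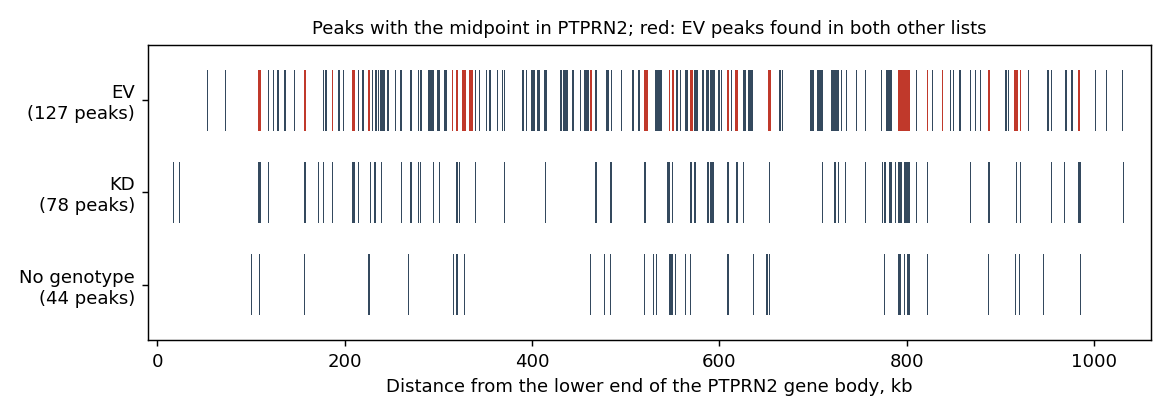
Peaks with their midpoint in PTPRN2 by distance in kb from the lower end of the gene body, for EV (127 peaks), KD (78 peaks) and the list without a genotype (44 peaks), with the 24 EV peaks found in both other lists in red. The red peaks reach over most of the gene body, in runs with gaps between them.

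Other genes with several members were few: 218 of the 245 genes had 1 member and 27 had 2 or more. TAFA5, a secreted chemokine-like protein gene, and DLGAP2, a postsynaptic scaffold gene, had 5 members each, of 42 and 31 EV peaks. SNTG2, a syntrophin gene, had 4 of 14, and SMOC2, a gene of a secreted calcium-binding matrix protein, had 4 of 8. In TAFA5, 23 EV peaks met the list without a genotype and 6 met KD. In SMOC2 the strongest member (chr6:168613646-168615729) had −log10 p of 86.2 in EV, 54.7 in KD and 17.1 in the list without a genotype. Of the 8 genes with the most members, PTPRN2, TAFA5, DLGAP2, SNTG2 and SMOC2 lay within 5 Mb of a chromosome end, and ZNF678, ZNF717 and KATNAL2 did not.

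In 4 genes with 3 or more EV peaks every one was a member: KATNAL2 with 4, and INPP5A, MUC12 and NTM with 3 each. KATNAL2, a gene of a katanin-like microtubule protein, had modest peaks in each list (chr18:46962622-47030021), with EV −log10 p of 4.37 to 6.88 and folds of 2.28 to 3.03 in EV, 3.08 to 4.19 in KD and 2.73 to 3.39 in the list without a genotype. INPP5A, a gene of an inositol phosphatase (chr10:132622322-132772838), had EV −log10 p of 12.9 to 16.8. NTM, which encodes the cell adhesion molecule neurotrimin, had 18.8 to 74.9. Of the 245 genes, 102 had a member as their only EV peak. No share over all genes with as many EV peaks is given beside these counts, so they are description only.

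Among 14 gene lists and a narrowed version of one, the mucins had a high share of members: 9 of their 22 genic EV peaks (40.9%, 20.7 to 63.6), in 7 of 18 genes, against the 4.15% of all genic EV peaks. Mucins are heavily glycosylated proteins whose central exons are long tandem repeats. In MUC5B (chr11:1242769-1251281, 8513 bp) −log10 p was 37.4 in EV, 14.6 in KD and 5.48 in the list without a genotype, and 83.3% of the bases were in all 3. In MUC12 (chr7:100995166-101001000) it was 40.9, 23 and 17.9, and in MUC2 (chr11:1096168-1099224) 36.7, 20.9 and 14.3. Of 6 EV peaks in 33 epidermal genes, 2 were members, both strong in every list. HRNR, the gene of the repetitive skin protein hornerin (chr1:152213596-152220764), had 99.3, 51.3 and 31.9, and EPPK1, the gene of epiplakin (chr8:143858267-143866367), had 76.5, 38.4 and 23.6. These lists are small and their intervals wide. Their members were also wide, with a median of 3057 bp in the mucins, and 7169 and 8101 bp in HRNR and EPPK1. Of all genic EV peaks, 19.1% of those from 2 to 5 kb and 54.7% of those of 5 kb or more were members. The part of width in the shares of these lists was not tested.

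Zinc finger genes held the largest number of members of any list, 44 in 35 of 600 genes. This was 14.4% of members (10.6 to 18.8) against 8.10% of the other genic EV peaks (7.47 to 8.76). Those that met the list without a genotype alone lay far above the members, at 36.3% (29.5 to 43.6), and those that met KD alone below them, at 5.52% (4.49 to 6.70). The share depended on strength, on width and on the definition of a shared peak. Below an EV −log10 p of 5, 31.0% of members (19.5 to 44.5) and 9.67% of other peaks lay in zinc finger genes, from 5 to 10 it was 19% (11.8 to 28.1) and 6.14%, and at 30 or more 1.18% and 1.14%. Below 1 kb it was 10% (3.33 to 21.8) and 6.26%, and from 1 to 2 kb 9.65% (4.92 to 16.6) and 8.84%. From 2 to 5 kb, 16.8% of members and 19% of other peaks lay in zinc finger genes, and at 5 kb or more 28.6% and 24.1%, with intervals that overlap. When at least 50% of the EV peak had to be covered by each other list the share was 3.77% of members against 8.46%, and with −log10 q of at least 2 in all lists 3.01% against 7.33%. Over all genic peaks the zinc finger share was 8.36% in EV, 6.69% in KD and 19.4% in the list without a genotype.

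**Figure D4:**
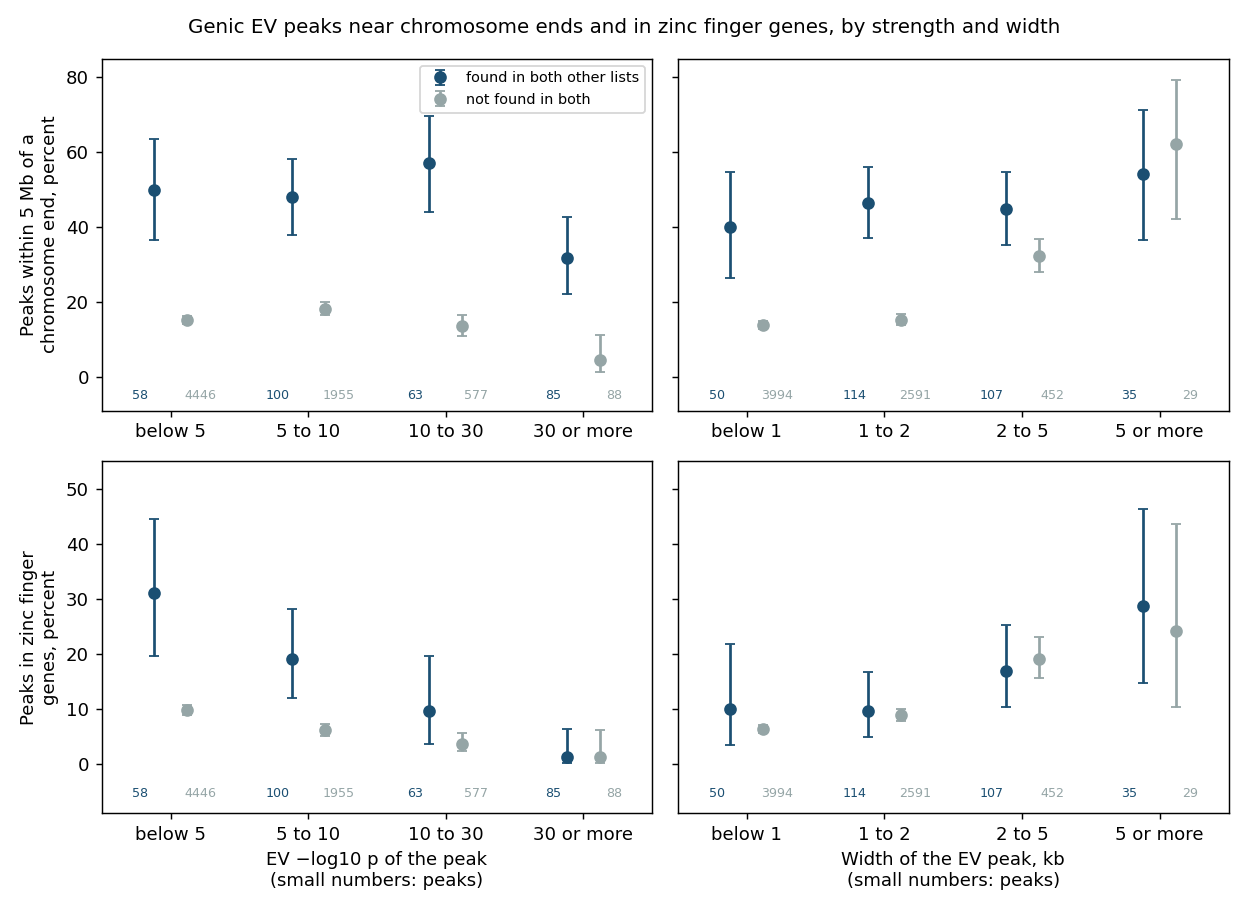
Points give the percent of genic EV peaks within 5 Mb of a chromosome end (top) or in zinc finger genes (bottom), for members and for other genic EV peaks, by EV −log10 p (left) and width in kb (right), with 95% exact intervals and the number of peaks in small print. Near chromosome ends the intervals of members and other peaks are apart at every strength and below 2 kb, and overlap above 2 kb. In zinc finger genes they are apart below an EV −log10 p of 10, and overlap at greater strength and at every width.

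Zinc finger members were wide and weak, and the 3 lists often marked different stretches of them. Their median EV −log10 p was 5.52, 37 of 44 had a value below 10, and the median share of bases in all 3 lists was 9.73%, against 56.0% for the other members. The strongest lay in ZNF227 (chr19:44219998-44221361), with −log10 p of 61.7 in EV, 21.8 in KD and 7.52 in the list without a genotype. ZNF701 (chr19:52578961-52579915) had 26.8, 13.4 and 4.87, and ZSCAN18 (chr19:58104367-58106525) 20.9, 12.4 and 3.95. On chromosome 19 there were 25 members in 25 of 268 zinc finger genes, and elsewhere 19 in 10 of 332, with ZNF678 holding 5 and ZNF717 4. ZNF274, whose protein recruits SETDB1 to the ends of zinc finger genes, had a member of its own (chr19:58188410-58196452) of 8043 bp with 5.40% of its bases in all 3 lists.

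Over all members, 39.6% of 790 kb were under a peak in all 3 lists, 62.1% under a KD peak and 51.0% under a peak of the list without a genotype. The median member had 49.0% of its bases in all 3, 147 members had at least 50%, 37 at least 90%, and 23 had no base in all 3 although each met both lists. Of 35 members of at least 5 kb, 8 had 50% or more and 22 had less than 20%, among them all 10 in zinc finger genes. The most complete were EPPK1 with 99.7% and BRF1, the gene of a subunit of the RNA polymerase III initiation factor TFIIIB (chr14:105229803-105240855, 11053 bp), with 95.2%. BRF1 had −log10 p of 78.4 in EV, 49.1 in KD and 17.4 in the list without a genotype. The widest member, in the homeobox gene ANHX (chr12:133213495-133239967, 26473 bp), met 5 KD and 6 no-genotype peaks that shared 6.90% of its bases.

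**Figure D5:**
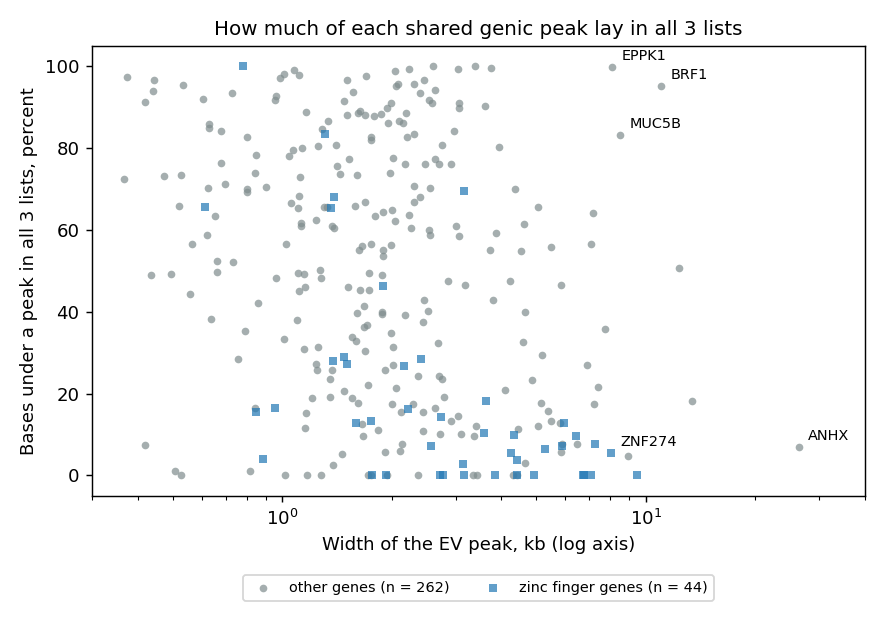
Each point is 1 member, with the width of the EV peak in kb on a log axis and the percent of its bases under a peak in all 3 lists. Most zinc finger members (squares) lie low, and among members of 5 kb or more EPPK1, BRF1 and MUC5B stand at 99.7%, 95.2% and 83.3% while ANHX is at 6.90%.

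Families of near-identical gene copies held 22 members of 125 EV peaks (17.6%, 11.4 to 25.4), against 4.15% of all genic EV peaks. The patterns that drew this list also matched unrelated genes such as TBC1D32, so it was narrowed after the members had been seen, to 20 members of 109 EV peaks (18.3%, 11.6 to 26.9). Of the members, 10 lay in USP17L genes, deubiquitinase copies in tandem on chromosome 4, in 2 runs of 5 (chr4:9215539-9270200 and chr4:9330125-9349378). Their EV −log10 p was at most 9.32, in USP17L11. The overlap of 15 members with an annotated pseudogene is another place where copies can share reads. The labels do not say how multi-mapping reads were treated.

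The neuronal adhesion, synapse and channel genes held 38 members of 303 EV peaks (12.5%, 9.03 to 16.8), against 4.15% of all genic EV peaks. PTPRN2 carried much of this share: without it, 14 of 176 EV peaks were members (7.95%, 4.42 to 13), in 7 genes. With PTPRN2, the list made up 12.4% of members and 4.11% of all genic EV peaks. Without PTPRN2 it made up 4.96% of members (14 of 282) and 176 of the 7245 genic EV peaks outside that gene. Of those 7245 peaks, 3.89% were members, below the interval of the 7.95%. Outside PTPRN2 the strongest lay in NTM (chr11:132319449-132320754), with −log10 p of 74.9 in EV, 21.9 in KD and 5.19 in the list without a genotype. DPP6, the gene of a potassium channel subunit (chr7:154058309-154063478), had 34.4, 12.6 and 4.04. The median gene with a member was 89.6 kb long and the median protein-coding gene 24.5 kb. Counted per peak, the median host was 131 kb for members and 103 kb for all genic EV peaks, so long hosts were common to genic peaks. The part of gene length in membership was not tested.

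The other lists held few members by count, or none. Clustered protocadherins had 3 members of 49 EV peaks (6.12%), all weak in the list without a genotype. PCDHB7 had 8.39 in EV, 8.61 in KD and 3.45 in the list without a genotype. Developmental transcription factor genes had 7 of 94 (7.45%), olfactory receptors 2 of 17 (11.8%) and imprinted genes 2 of 30 (6.67%). The imprinted members lay in ATP10A, a lipid transporter gene (9.6, 5.14 and 11.2), and RB1, the retinoblastoma tumour suppressor gene (5.25, 4.0 and 3.63). Among 23 housekeeping genes 1 member lay in SDHA, a mitochondrial complex II gene, with 31.8, 27.1 and 8.82. HOX genes had 0 members of 6 EV peaks, H3K9 methylation enzymes and partners 0 of 14, histone genes 0 of 2 and ribosomal protein genes 0 of 4. For every list of this paragraph, the exact interval of the share of EV peaks that were members includes the 4.15% of all genic EV peaks.

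At gene starts, 14 members covered an annotated start of their own host gene. Starts were known for the hosts of 214 of 306 members (69.9%), too few to compare members with other peaks by position. Among peaks with a known host start, 6.54% of members (3.62 to 10.7) covered a start. The value was 3.04% for all genic EV peaks and 6.22% for those that met KD alone, and no difference is read from these. The starts under members had a median CpG observed-to-expected ratio of 0.734 (15 starts), those under other genic EV peaks 0.809 (210 starts) and all starts 0.743 (21156 starts). The 15 are not independent: TAF11L3 and TAF11L4 share all 300 bases, as do PRR20D and PRR20E, and the ANHX stretches overlap each other. A GC box (GGGCGG on either strand) lay in 11 of the 15, in 62.4% of starts under other genic EV peaks and in 56.6% of all. A TATA box (TATAAA) lay in 1, in 5.71% and in 9.51%, and a CCAAT box in 7, in 32.9% and in 34.4%. All were searched on both strands, and none of the 3 contains another. A match describes letters and is no sign of a bound factor. Beside the genes whose upstream sequence is shown above, members covered the starts of ZNF835, SP5, ZIC4, FOXI2, NKX2-2, GALR1, ANHX, TAF11L3, PRR20D and PRR20E. Among these, EV −log10 p was 7.45 in ZNF835, 5.95 in SP5 (chr2:170713699-170717125) and 5.33 in ZIC4 (chr3:147390739-147392867). It was 5.14 in FOXI2 (chr10:127736287-127739191), 3.96 in NKX2-2 (chr20:21512035-21513649) and 3.92 in GALR1. Around the starts of all the genes named here no base was under a peak in all 3 lists.

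The mature stretches of 2 microRNAs lay under members, and their sequences are shown with the seed, bases 2 to 8, in capitals, since the seed sets the targets of a microRNA.
hsa-miR-663b: gGUGGCCCggccgugccugagg
hsa-miR-4273: gUGUUCUCugauggacag
The seeds differ. The hairpin of hsa-miR-663b (chr2:132256966-132257080, minus strand) lay in the ANKRD30BL member, with folds of 3.81 in EV, 3.66 in KD and 3.46 in the list without a genotype. The mature hsa-miR-4273 stretch (chr3:75738290-75738307, plus strand) lay in a ZNF717 member, with folds of 3.18, 3.66 and 3.65. Peak lists hold no expression, so nothing is known here of the levels of these RNAs.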

How the data were processed

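H3K9me3 was profiled in HEK293T cells, and 3 lists of broad peaks were used, 1 library per group. The submitters' processing notes name Bowtie2, MACS2 and GRCh38, with no versions. Calling options, control libraries and filters are unknown here. For each peak the authors deposited a fold enrichment (a ratio to background) and the scores −log10 p and −log10 q. The lowest deposited −log10 q is 1.00 in EV. No list holds read counts, so depth is unknown.

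Host gene bodies came from a RefSeq table on GRCh38.p14 with positions but no strand or exons, and strands of genes with an annotated start from a RefSeq promoter table. Exon and intron context was not analysed here. A chromosome end is position 1 or the last gene or peak end. Overlaps were computed with numpy 2.4.6 and pandas 2.3.3 and tested on simulated data against bedtools 2.31.1. Shares have exact Clopper-Pearson 95% intervals over peaks (scipy 1.17.1), which cover counting error only. Figures were drawn with matplotlib 3.10.9. No test between lists, set test or adjusted p was computed.

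Members were drawn for naming as the 15 strongest by EV −log10 p, the 10 widest, the 8 genes with the most members and up to 4 per gene list. Also drawn were 10 at gene starts, those at the edge of the rule, and the 5 of at least 2 kb with the largest share in all 3 lists. Not every member drawn in this way is named. Others named were chosen after their values were seen. Members and gene lists were chosen with earlier results of these data known. The distance to chromosome ends, the split of strong members, the bins of strength and width, the limits of 5 kb and 20%, the runs of members at most 50 kb apart, the pseudogene overlap, the self-shift of promoter sequences, the neuronal list without PTPRN2 and the narrowed list of copy families were chosen after the values were seen.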

Additional observations from a re-analysis of the deposited data

How the results depend on the processing

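Across 11 alternative settings, 61 values were computed for 7 results, of which 38 stayed and 23 moved. A count stayed when within 1.5 times the main one, a share when inside its 95% interval, and the share of bases when within 1 percentage point. When at least 50% of the EV peak had to be covered by each other list, members numbered 159 in 143 genes. They were 2.16% of genic EV peaks, with 3.77% in zinc finger genes and 2.83% over a gene start. Of their bases 73.9% were in all 3 lists, a rise built into this setting. With −log10 q of at least 2 they numbered 133 (3.09%) in 118 genes, with 60.4% of bases in all 3, 3.01% in zinc finger genes and 53.4% within 5 Mb of a chromosome end. With fold of at least 3 they numbered 188 (4.94%), with 42.5% of bases in all 3 and 19.1% in zinc finger genes. With each list limited to the 12081 peaks of the shortest, 7.13% of genic EV peaks were members and 47.2% of bases were in all 3. Merging peaks within 3 kb gave 30.3% of bases in all 3. Asking for the whole peak in 1 gene body gave 41.4%, and 1.52% over a gene start against 6.54% in the main setting. Peaks that run past the outer end of a gene are dropped there, so this fall was built into the setting. Distance limits of 2 and 10 Mb, added after the data were seen, gave 33% and 54.6% near a chromosome end. The copy-family list as first drawn left 284 members in 223 genes, and the version narrowed after the data were seen left 286 in 225. Settings without PTPRN2, also added later, left 282 members. The zinc finger share fell below that of other genic EV peaks under the 50% and q settings alone, and the share near chromosome ends stayed above it in all 11 settings. No paired analysis was possible because each group has 1 library. Depth is unknown and no replicate could be left out.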
